A study of Mus musculus with 4 samples.

Results

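Rab proteins are the largest branch of the Ras-like small GTPases. Each one cycles between a GTP-bound form on a membrane and a GDP-bound form that GDI keeps soluble. Guanine nucleotide exchange factors (GEFs) switch a Rab on, GTPase-activating proteins (GAPs) switch it off, and effectors that read the GTP-bound form tether, move or fuse the vesicle. Lipids on cysteines at the C-terminal end, a pair of geranylgeranyl groups in many members, hold the protein in its membrane. In macrophages, Rab5 and Rab7 are known for the early and the late steps of phagosome and endosome maturation, and other members carry receptors, cytokines and lysosomal enzymes.

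The genes described here are the 59 mouse genes whose name is Rab followed by a number, with or without a letter, and that have at least 1 transcript annotated as protein-coding. They were taken from 55536 annotated genes, of which 22028 are protein-coding. The rule uses names and annotation, not expression values. The cells were macrophages grown from bone marrow of C57BL/6J mice. All 4 libraries come from 1 condition: 100 ng/ml lipid A, the membrane anchor of bacterial lipopolysaccharide and a ligand of TLR4, for 12 h, then 12 h after it was washed out, then 100 ng/ml lipid A again for 15 min. RNA was taken from the cytosolic fraction and depleted of ribosomal RNA. There was no untreated or singly treated group among the samples, so the levels below describe this state and no response to it. The labels call the samples biological replicates 1 to 4 and name 1 donor record for all of them, with age and sex not collected. They do not say whether the cultures came from separate animals, so p-values measure only the spread between these libraries, which may be technical.

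Expected counts, the submitters' estimates of the reads belonging to each gene, summed to between 30660511 and 48223718 per library, and those of the Rab genes to between 156448 and 209307. Levels are given in TPM, a relative abundance with a fixed total in each library, which is corrected for transcript length and can be compared between genes. All 12 macrophage markers examined lay above 1 TPM, led by Lyz2 at 3430 TPM, C1qb at 997 TPM and Mpeg1 at 750 TPM. None of 35 markers of T and NK, B, neutrophil, fibroblast, epithelial, erythroid, mast or nerve cells did. The highest of these 35 was the neutrophil granule gene Ngp at 0.71 TPM, and 11 of them had 0 counts. Malat1, a nuclear RNA, ranged from 55.7 TPM in replicate 1 to 719 TPM in replicate 2, and its part in the Rab values was not tested.

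Every Rab gene carries a stretch for the nucleotide pocket whose codons in most members read tryptophan, aspartate, threonine, alanine, glycine, glutamine and glutamate. The DNA of this stretch shows how closely the most abundant relatives resemble each other, which matters for assigning reads to them. The coding stretch of 57 bases around it is shown for the 3 Rab5 genes and for the Rab7, Rab8 and Rab11 pairs, from the annotated transcripts on mm10 and in the direction of transcription. Capitals mark bases that differ from the gene first named in each family.
Rab5a: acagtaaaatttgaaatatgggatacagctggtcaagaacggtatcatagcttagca
Rab5b: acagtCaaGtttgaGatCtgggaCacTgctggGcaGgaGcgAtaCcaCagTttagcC
Rab5c: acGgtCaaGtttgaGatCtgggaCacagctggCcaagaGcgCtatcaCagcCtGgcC
Rab7: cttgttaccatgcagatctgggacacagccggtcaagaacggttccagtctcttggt
Rab7b: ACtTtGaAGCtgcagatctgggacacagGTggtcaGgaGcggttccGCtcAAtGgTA
Rab8a: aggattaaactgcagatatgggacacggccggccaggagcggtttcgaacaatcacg
Rab8b: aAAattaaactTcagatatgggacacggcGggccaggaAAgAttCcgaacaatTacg
Rab11a: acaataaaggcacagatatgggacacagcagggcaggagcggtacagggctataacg
Rab11b: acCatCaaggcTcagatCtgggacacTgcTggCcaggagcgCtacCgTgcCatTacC

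The Rab5a stretch lies at chr17:53497565-53497621 on the plus strand. Rab5b has its copy at chr10:128683252-128683308 and Rab5c at chr11:100718488-100718544, both on the minus strand. Those of Rab11a, at chr9:64728239-64728295, and Rab11b, at chr17:33749787-33749843, are on the minus strand too. In the Rab7 and Rab8 genes the stretch crosses an intron. Even in this conserved region 14 of 57 bases differed between Rab5b and Rab5a, 18 between Rab7b and Rab7 and 9 between Rab8b and Rab8a. Over the whole coding sequence, the 18 pairs of related genes examined were between 61.0% and 78.4% identical. At most 0.425% of the 31-base words of 1 member of a pair occurred in the other.

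The strict 7-codon motif was found in frame in 49 of the 59 coding sequences, searched as codons for those amino acids. The other 10 genes depart from it, and 7 of them were of at least 1 TPM. Their 21 bases are shown in order of level, because these members depart at the residues next to the nucleotide. Capitals mark each codon that departs from the motif.
Rab7b: tgggacacaGGTggtcaggag
Rab32: tgggatATCgcgggacaggaa
Rab20: tgggacaccgcagggCGGgag
Rab24: tgggacacagcaggtTCCgag
Rab28: tgggatATAGGAgggcagACA
Rab29: tgggatATTgcagggcaggag
Rab40c: tgggacacaTCGggccagGGA
Rab38: tgggacATTgctggtcaagaa
Rab40b: tgggacaccTCGgggcagGGG
Rab25: tgggacacggccggcCTGgag

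Rab32, Rab29 and Rab38, which are close relatives that act on lysosome-related organelles and the trans-Golgi network, share an isoleucine codon in place of that for threonine. Rab28 also has an isoleucine codon at that place, beside other departures. Rab24, an atypical member linked to autophagy, has a serine codon in place of glutamine. The stretches that lie within 1 exon are those of Rab7b (chr1:131698419-131698439, plus strand), Rab28 (chr5:41698432-41698452, minus strand) and Rab25 (chr3:88545084-88545104, minus strand).

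In 58 of the 59 genes the coding sequence ends with a cysteine pattern of the kind that receives the lipids, as the last 30 coding bases of 3 abundant members show, with cysteine codons among the last 4 codons in capitals.
Rab7: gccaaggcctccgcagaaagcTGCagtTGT
Rab8b: aagaccagtttcttccgcTGTtctctgctt
Rab1a: ccagtcaagcagtcaggtggaggcTGCTGC

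The Rab7 end is at chr6:88000438-88000467 and that of Rab8b at chr9:66847722-66847751, both on the minus strand. Rab1a ends at chr11:20224813-20224842 on the plus strand. An ending in Cys-X-Cys, as in Rab7, was found in 20 members, with 9 of the 17 tested above 1 TPM by the limma tests given below. A cysteine in the fourth codon from the end, as in Rab8b, was found in 20 members, with 13 of 17 tested above. Cys-Cys as the last 2 codons, as in Rab1a, was found in 15, with 13 of 14 tested above, and Cys-Cys-X in 3 (Rab20, Rab34 and Rab44). Over all members tested the share above was 72.5%, beside 71.2% of protein-coding genes, and the classes were not compared by a test. The annotated Rab26 transcript used here had none of these endings.

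Most of the family was present in these macrophages. Of the 59 genes, 51 had enough reads to test (expected counts summing to at least 10). Of these, 37 lay above 1 TPM, 10 below and 4 on neither side by limma's one-sided tests with Benjamini-Hochberg adjustment over all genes tested. Above 1 TPM lay 58.2% of all 16262 genes tested and 71.2% of the 12636 protein-coding ones, so that the share of Rab genes, 72.5% of those tested, was near that of protein-coding genes. Below 1 TPM were 19.6% of the tested Rab genes, beside 35.1% of all genes and 22.4% of protein-coding ones. The median level was 14.9 TPM over the 51 tested members and 6.62 TPM over all 59, against 4.85 TPM over the protein-coding genes tested. Adjusted p-values ran from 1.48e-10 to 0.0225 for the members above and from 9.48e-08 to 0.00202 for those below.

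Together the Rab genes made up 0.398% ± 0.0198 (SD, n = 4) of the TPM of protein-coding genes, while they are 0.268% of those genes by number. By library the share was 0.423%, 0.384%, 0.381% and 0.405% in replicates 1 to 4. As a share of expected counts, which grows with transcript length, it was 0.520% ± 0.0373. Rab7 and Rab5c alone held 21.7% of the family's TPM and the first 15 genes 75.3%.

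Replicate 2 was the lowest library for 34 of the 39 genes of at least 1 TPM, and replicate 4 the highest for 32. The factor that gives each library's protein-coding genes the same total TPM was highest in replicate 2, at 3.95, and lowest in replicate 4, at 2.73, so the protein-coding part of the TPM moved with the Rab values. After that rescaling, replicate 2 was the lowest for 12 genes and the highest for 8, and replicate 4 the highest for 11. Differences between libraries in the deposited TPM below therefore carry this shift.

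**Figure D1:**
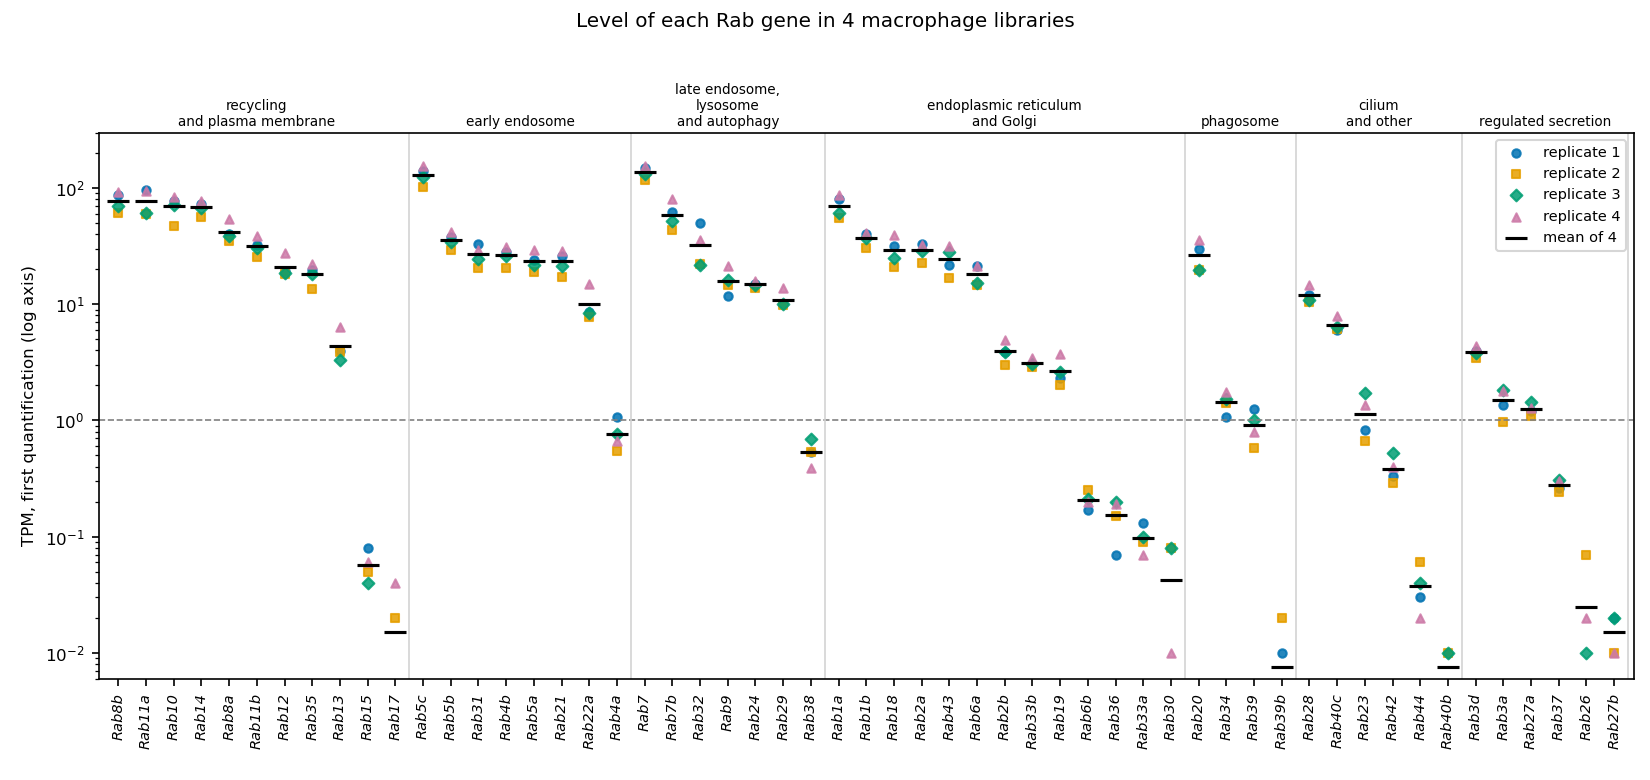
TPM of 55 Rab genes in each of 4 libraries (points, log axis) with their mean (bars), grouped by the compartment with which the protein is mostly associated and ordered by mean; the dashed line is 1 TPM, values of 0 are not drawn, and Rab25, Rab3b, Rab3c and Rab9b, all listed at 0 TPM, are left out. The recycling, early endosome, late endosome and Golgi groups each reach from above 20 TPM to below 1 TPM, while no regulated secretion gene passes 4.34 TPM in any library.

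Late endosome, lysosome and autophagy genes included the most abundant member. Rab7, at chr6:87999106-88045270, drives fusion of late endosomes and phagosomes with lysosomes. It had 149, 116, 132 and 156 TPM in replicates 1 to 4, or 138 ± 17.8 (SD, n = 4). Rab7b, which is known for transport from endosomes to the trans-Golgi network and for limiting TLR signalling, had 61.8, 43.5, 51.7 and 79.8 TPM, with replicate 4 the highest. Rab32, a regulator of lysosome-related organelles, had 49.7, 22.4, 21.6 and 35.6 TPM (mean 32.3 ± 13.3), highest in replicate 1.

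Also in this group, Rab9, which returns receptors from late endosomes to the Golgi, was at 15.9 ± 3.90 TPM, Rab24 at 14.9 ± 0.872 TPM and Rab29, a trans-Golgi and lysosome protein that recruits the kinase LRRK2, at 11.0 ± 1.97 TPM. Rab38, the nearest relative of Rab32 and a melanosome protein, lay below 1 TPM, at 0.54 ± 0.122. Rab9b had no count in any library, which allows up to 0.0101 to 0.0156 TPM by library (3 counts per library, counting error only). Of the 8 genes, 6 of 7 tested were above 1 TPM, and they held 22.1% ± 0.518 of the family's TPM.

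Among early endosome genes, which sort newly internalised cargo, 7 of 8 lay above 1 TPM. Rab5c, at chr11:100715009-100738215, had 140, 102, 125 and 154 TPM, or 130 ± 22.2. Rab5b had 37.9, 29.1, 34.4 and 42.1 TPM. Rab5a was the lowest of the 3 Rab5 genes in every library, at 23.5 ± 4.50 TPM.

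Rab31 and Rab22a are related regulators of traffic from the trans-Golgi network and early endosomes. Rab31 was at 26.9 ± 5.56 TPM. Rab22a had 8.65, 7.74, 8.39 and 15.1 TPM, with replicate 4 above all the rest. Rab4b, for fast recycling, was at 26.5 ± 4.58 TPM and Rab21, for integrin uptake, at 23.3 ± 5.01 TPM. Rab4a, the relative of Rab4b, passed neither test, with 1.07, 0.55, 0.77 and 0.67 TPM (adjusted p = 0.0949 for a level below 1 TPM, limma).

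Recycling and plasma membrane genes held the largest part of the family's TPM, 33.2% ± 0.240, and 9 of 10 tested lay above 1 TPM. Rab8b, which with Rab8a carries vesicles to the cell surface, had 86.7, 61.4, 70.2 and 92.8 TPM, and Rab8a 40.6, 34.9, 38.5 and 54.5. Rab11a, the main Rab of recycling endosomes, had 95.7, 60.01, 60.5 and 93.9 TPM, high in replicates 1 and 4. Its relative Rab11b had 32.5, 25.6, 30.5 and 38.9 TPM.

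Rab10, known for carrying TLR4 to the surface of macrophages, had 77.7, 47.2, 71.6 and 83.7 TPM, lowest in replicate 2. Rab14, of the trans-Golgi network and phagosomes, had 72.7, 55.9, 67.1 and 77.3 TPM. Rab12 followed at 20.9 ± 4.55 TPM and Rab35, of fast recycling, at 18.3 ± 3.62. Rab13, a tight-junction and recycling protein, had 3.95, 3.85, 3.29 and 6.41 TPM. Rab15, mostly a nerve cell gene, was below 1 TPM at 0.0575 TPM, and Rab17, of epithelial cells, had 2 counts in all. Rab25, also epithelial, had none, which allows up to 0.0676 to 0.105 TPM by library (counting error only). The posterior mean deposited for Rab25 was higher than that, at 0.2375 TPM.

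In the endoplasmic reticulum and Golgi group, 9 of 13 genes lay above 1 TPM and 4 below. Rab1a, which moves cargo from the endoplasmic reticulum to the Golgi, had 79.9, 55.03, 61.3 and 86.4 TPM and its relative Rab1b 40.4, 30.4, 37.3 and 41.3. Rab18, of lipid droplets and the endoplasmic reticulum, had 31.8, 20.95, 25.03 and 39.6 TPM. Rab2a, which acts between the Golgi and lysosomes, had 33.1, 22.6, 28.9 and 32.5 TPM.

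Lower in the same group were Rab43 at 24.5 ± 6.43 TPM and Rab6a, of retrograde Golgi traffic, at 18.1 ± 3.69. Rab2b was at 3.93 ± 0.804, Rab33b, which binds the autophagy complex with Atg16l1, at 3.11 ± 0.224 and Rab19 at 2.67 ± 0.750. The 4 below were Rab6b at 0.208, Rab36 at 0.153, Rab33a at 0.0975 and Rab30 at 0.0425 TPM.

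Of the 4 phagosome genes, Rab20, which joins maturing phagosomes in macrophages, led with 30.02, 19.7, 19.7 and 35.9 TPM, high in replicates 1 and 4. Rab34 was at 1.44 ± 0.278 TPM. Rab39 passed neither test, with 1.26, 0.58, 1.01 and 0.79 TPM (adjusted p = 0.539 for a level below 1 TPM, limma). Rab39b, mostly a nerve cell gene, had 4.85 expected counts in all.

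Genes of regulated secretion were low and held 0.568% ± 0.0655 of the family's TPM. Rab3d, of secretory granules, was at 3.89 ± 0.373 TPM and Rab3a, of synaptic vesicles, at 1.49 ± 0.406. Rab27a, of lysosome-related granules, passed neither test, with 1.2, 1.1, 1.43 and 1.27 TPM, all of them above 1 (adjusted p = 0.0744, limma). Rab37 at 0.278 and Rab27b at 0.015 TPM lay below 1 TPM. Rab26 had 5 counts, Rab3b 1 and Rab3c none.

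Of the remaining genes, Rab28, of the cilium, was at 11.9 ± 1.82 TPM and Rab40c, part of a ubiquitin ligase, at 6.62 ± 0.917. Rab23, a ciliary regulator of Hedgehog signalling, passed neither test, with 0.83, 0.66, 1.71 and 1.36 TPM (adjusted p = 0.577, limma). Rab42 at 0.385 and Rab44 at 0.0375 TPM were below 1 TPM, and Rab40b had 3 counts in all.

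Neighbours in this order were often not separated. Among the 15 highest genes, 4 of 14 neighbouring pairs stood in the same order in all 4 libraries: Rab7 over Rab5c, Rab5c over Rab8b, Rab7b over Rab8a and Rab8a over Rab1b. Rab8b exceeded Rab11a in 2 of 4 libraries, and Rab32 exceeded Rab11b in 1 of 4. The limits of the calls lie near 1 TPM. Rab3a and Rab34 lost their call without replicate 3 (adjusted p = 0.0983 and 0.0635) and without replicate 4 (0.0881 and 0.0543, limma). They also lost it with no filter on low values (0.207 and 0.0866, limma), and in the second quantification as deposited both were called below 1 TPM. With each library rescaled to its protein-coding genes, 42 of 51 members tested lay above 1 TPM and 6 below. Of all 16262 genes tested on that scale, 11024 lay above and 3453 below. In the second quantification as deposited, 32 of 54 members tested lay above and 19 below. All genes moved too, with 7324 of 21508 tested above and 12231 below.

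The comparison of related genes asked which copy of each pair dominates in these cells. All 15 pairs in which both genes had at least 10 counts kept 1 order in all 4 libraries, by log2 ratios of TPM + 0.1. With 4 libraries the smallest p that the exact two-sided sign-flip test can give is 0.13, which each pair reached before and after adjustment over 15 pairs, so no pair can pass 0.05.

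Rab5c stood over Rab5b by 1.81 to 1.89 on the log2 scale, a ratio with an SD of 0.0334 between libraries and a mean fold of 3.61. It was 5.53-fold over Rab5a. Rab5b was 1.53-fold over Rab5a. Rab7 was 2.38-fold over Rab7b, with log2 ratios of 1.27, 1.42, 1.35 and 0.96, lowest in replicate 4. Rab1a was 1.87-fold over Rab1b. Rab8b was 1.85-fold over Rab8a and Rab11a 2.39-fold over Rab11b at the level of genes, but both values rest on short transcripts that are described with the transcripts below. Counting only transcripts with a complete coding sequence, an alternative added after the data were seen, Rab8b (77.8 TPM) was 4.45-fold over Rab8a (17.3 TPM). On that count Rab11a and Rab11b had no common order across libraries, at means of 26.2 and 27.6 TPM, with log2 ratios of 0.25, 0.05, -0.21 and -0.39 in replicates 1 to 4. These sums include shorter coding sequences, such as Rab11a-204 (258 coding bases) at 9.37 TPM and Rab11b-203 (579 coding bases) at 24.3 TPM. The longest coding forms, Rab11a-208 (648 bases) and Rab11b-201 (654 bases), had means of 13.3 and 3.30 TPM, with Rab11a the higher.

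In 5 pairs the lower copy was under 1 TPM on average, where the scale of TPM + 0.1 understates the fold. Rab6a was 58.4-fold over Rab6b, a gene of the nervous system, on that scale, and 58.2 to 125 times as high by TPM itself. Rab32 was 48.4-fold over Rab38 on that scale and 31.2 to 92.1 times as high by TPM. Rab27a was 11.7-fold over Rab27b on that scale and 60 to 127 times as high by TPM. Rab27b is listed there at only 0.01 or 0.02 TPM per library and had 12 counts in all. Rescaled to protein-coding genes, Rab27b had 0.0492 TPM in the first quantification and 0.494 in the second, and Rab27a 4.09 and 3.85. The ratio was thus much smaller in the second. Rab4b was 31.1-fold over Rab4a on that scale (26.5 to 46.5 by TPM) and Rab33b 16.3-fold over Rab33a (23.4 to 48.9 by TPM). Among the other pairs, Rab2a was 7.32-fold over Rab2b, Rab31 2.74-fold over Rab22a and Rab3d 2.58-fold over Rab3a. Rab9 over Rab9b, Rab39 over Rab39b and Rab40c over Rab40b were not compared, since the lower gene had under 10 counts.

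**Figure D2:**
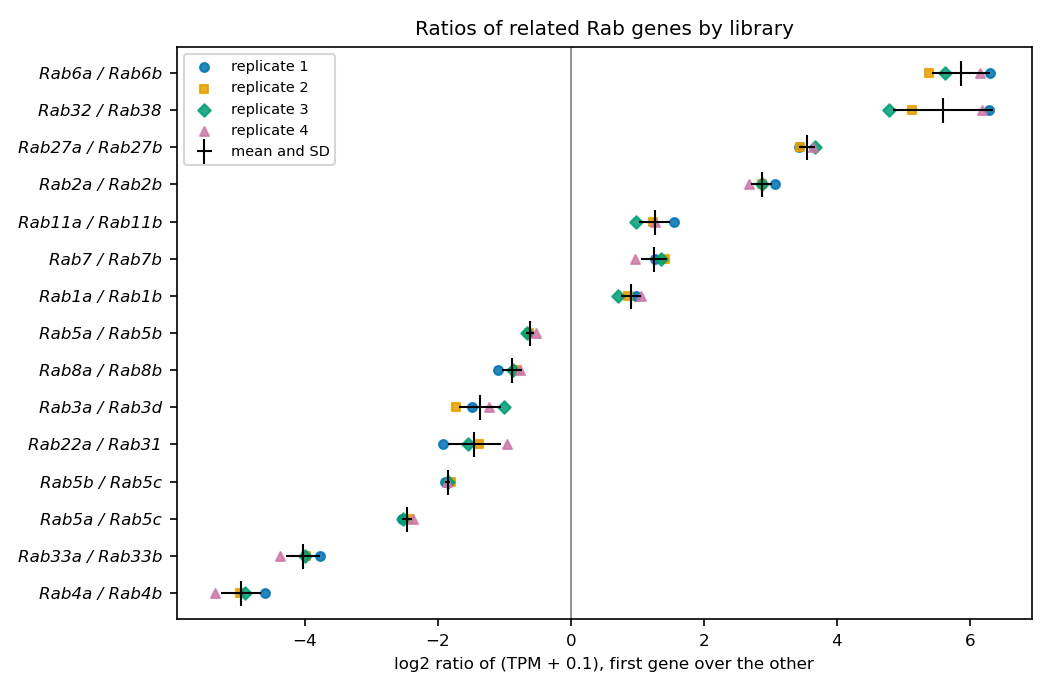
Log2 ratio of TPM + 0.1 between related Rab genes, first gene over the other, in each of 4 libraries (points) with the mean and SD (black). Gene-level values of no pair cross 0; the Rab5b to Rab5c ratio is the tightest, with an SD of 0.0334, and the Rab32 to Rab38 ratio spreads from 4.78 to 6.28.

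Other genes that hold the same sequence could take or give reads. At least 20% of the 31-base words of the transcript used occurred in another gene for 3 members. Rab43 shared 90.3% with Gm45140, Rab4b 82.3% with Gm21983 and Rab11b 32.4% with the processed pseudogene Rab11b-ps2. Rescaled to protein-coding genes, Gm45140 had 4.26 TPM in the first quantification and 4.88 in the second, and Gm21983 had 0.0250 and 0. The level of Rab43 is thus uncertain by what was assigned to Gm45140. Of the 4 annotated Rab pseudogenes, Rab7-ps1 reached 1.02 TPM as deposited, or 3.17 after rescaling against 0.122 in the second quantification. Rab11b-ps2 had 0.568 TPM, or 1.80 after rescaling against 0.228. Rab5a-ps and Rab9b-ps1 had none.

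Per the deposited notes, each library was quantified in 2 ways, from alignments to the transcriptome and directly from the reads. After rescaling to protein-coding genes, 43 members were of at least 1 TPM in either. Of these, 0 passed a test for a difference beyond 2-fold (limma treat on rescaled log2(TPM + 0.1), adjusted p), and 0 had an unadjusted p under 0.05 in that test. The test asks only about differences beyond 2-fold and says nothing of smaller ones. Of all 14108 genes compared, 3.3% were higher and 0.858% lower in the second. Differences of members ran from -0.21 to 0.37 on the log2 scale, with a median of -0.02 beside 0.05 for all genes. Rab7 had a mean of 491 rescaled TPM in the second, a log2 difference of 0.13 (SE 0.0355). Smaller differences exceeded 3 standard errors between libraries in 25 of the 43 members. They are given as a description only, without a share over all genes, so the count shows nothing particular to Rab genes. Rab11a was higher in the second by 0.35 (SE 0.0348) and Rab1a by 0.21 (SE 0.0206) on the log2 scale, and Rab2b differed by -0.21 (SE 0.0181).

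The spread between libraries was set beside that of all genes. The biological coefficient of variation (BCV), edgeR's estimate of relative spread beyond counting error, had a median of 14.6% over the 42 members with a mean count of at least 50, beside 15.8% over 10989 genes. For 8 members it exceeded 20.9%, the upper quartile of all genes. Rab32 was the most abundant of these, with a BCV of 27.1% and 154, 80.6, 68.8 and 96.8 CPM (read counts scaled to a common library total by TMM), so its replicate 1 value also stood above the other libraries on this scale. The rest of the 8 were below 9 CPM in every library: Rab4a, Rab6b, Rab39, Rab3a, Rab34, Rab13 and Rab23.

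**Figure D3:**
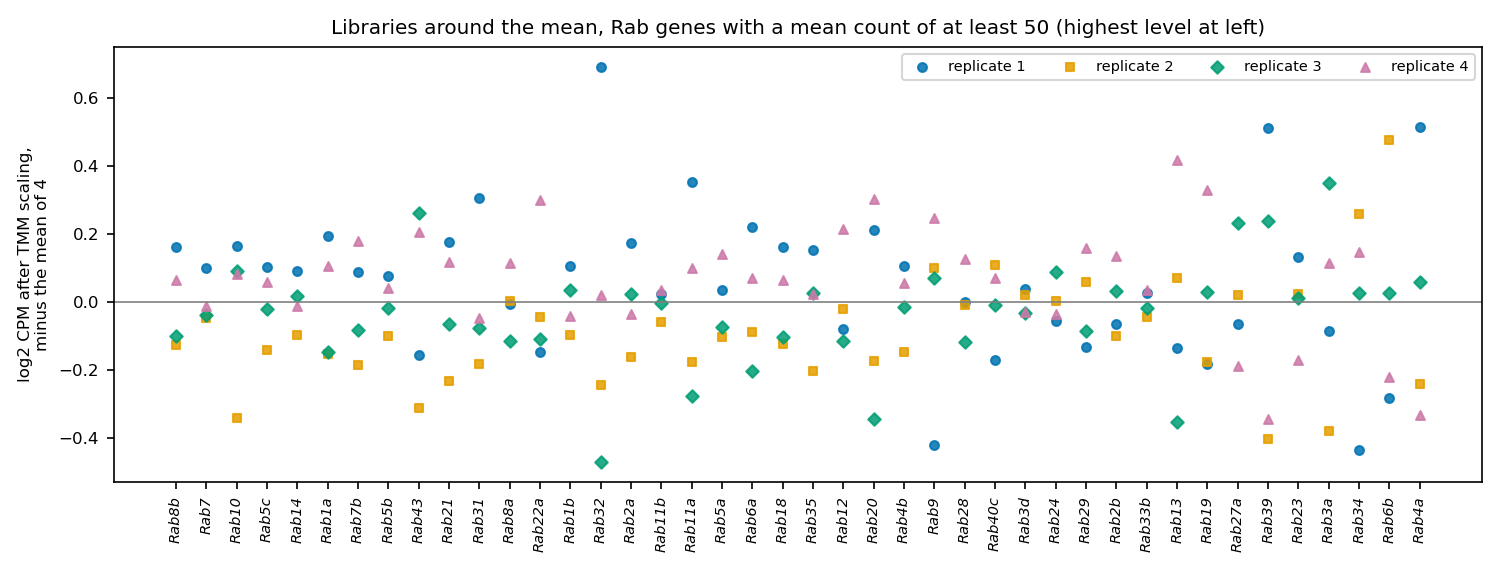
Log2 CPM after TMM scaling, minus the mean of the 4 libraries, for the 42 Rab genes averaging 50 counts or more, ordered by level from left to right (points, 1 per library). Rab32 in replicate 1 lies farthest above the mean, and the low genes at the right spread more widely.

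On transcripts, 38 of the 39 members of at least 1 TPM were led by a protein-coding transcript in the first quantification, 37 of 39 by the same one in both, and 21 by one that held at least 90% of the gene's TPM. The exception was Rab8a. Its Rab8a-202, a retained-intron transcript of 542 bases with no annotated coding sequence, held 58.3% ± 1.96 of the gene's TPM and 66.3% ± 0.612 in the second quantification. The coding Rab8a-201, of 4550 bases, held 41.4% ± 2.18 of the TPM but 90.5% of the expected counts. By TPM of the coding transcript alone, Rab8a was thus at 17.3 ± 2.74 TPM, in place of 42.1 for the gene.

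In 5 other genes of at least 5 TPM the leading transcript held under 60%. For Rab11a it was Rab11a-201, of 595 bases and with an incomplete annotated coding sequence, at 40.4%, 38.5%, 38.9% and 49.3% in replicates 1 to 4. The complete Rab11a-208, of 2336 bases, held 17.3% of the TPM and 55.3% of the counts. Rab18 was led by Rab18-203, of 729 bases, at 44.3% ± 3.44, while Rab18-205, of 6515 bases, held 18.8% of the TPM and 68.7% of the counts. In these 3 genes the gene-level TPM rests largely on short transcripts. A ratio to a relative with 1 long transcript, such as Rab8b with 100% in Rab8b-201, carries that. The ratios over complete coding transcripts given with the pairs show it for Rab8a. For Rab11a they are less plain, since Rab11b was itself led by Rab11b-203, of 1544 bases beside 6109 for Rab11b-201, at 76.2%.

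Rab7b was split evenly between Rab7b-202, with a coding sequence of 597 bases, at 49.3% ± 3.75 and Rab7b-201, with 471 coding bases, at 48.4% ± 3.25. In the second quantification the order was turned, with 39.6% and 54.7%. Rab40c-201 held 23.6% in replicate 1 and 57.0%, 61.1% and 63.1% in replicates 2 to 4. In replicate 1, 41.7% was assigned to Rab40c-209, which has the same coding sequence.

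Rab6a makes proteins that differ in a swapped exon, known as Rab6A and Rab6A'. Both coding exons are 106 bases long and lie next to each other on the plus strand, at chr7:100629838-100629943 in Rab6a-201 and chr7:100629666-100629771 in Rab6a-202 and Rab6a-203. They are shown because reads over their 30 differing bases, in capitals, tell the forms apart.
Rab6a-201: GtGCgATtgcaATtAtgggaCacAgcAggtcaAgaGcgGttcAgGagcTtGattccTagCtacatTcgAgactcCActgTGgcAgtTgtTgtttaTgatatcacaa
Rab6a-202: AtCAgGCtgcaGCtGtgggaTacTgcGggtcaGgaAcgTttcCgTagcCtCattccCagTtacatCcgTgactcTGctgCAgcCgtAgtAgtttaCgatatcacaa

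The transcript with the downstream exon held 42.6%, 47.4%, 47.4% and 51.9% of Rab6a TPM in replicates 1 to 4, and those with the upstream exon together 57.4%, 51.7%, 51.8% and 47.6%. Neither form was ahead in all libraries. In the second quantification the downstream exon had 55.0% ± 3.75 and the upstream exon 44.0% ± 3.98.

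Smaller splits were seen elsewhere. Rab29-201 and Rab29-202, at 63.2% and 36.1%, have the same coding sequence. Rab43-203 held 66.8% in the first and 89.6% in the second quantification, and Rab2b-201 56.3% and 83.1%. Rab35-202, a substrate of nonsense-mediated decay, held 7.49% in the first and 27.5% in the second. Rab3a-201 held 58.0% ± 19.5. Rab23 was led by the coding Rab23-201 at 39.4% ± 19.0 in the first quantification and by the retained-intron Rab23-208 at 32.1% ± 14.03 in the second, at a level near 1 TPM.

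**Figure D4:**
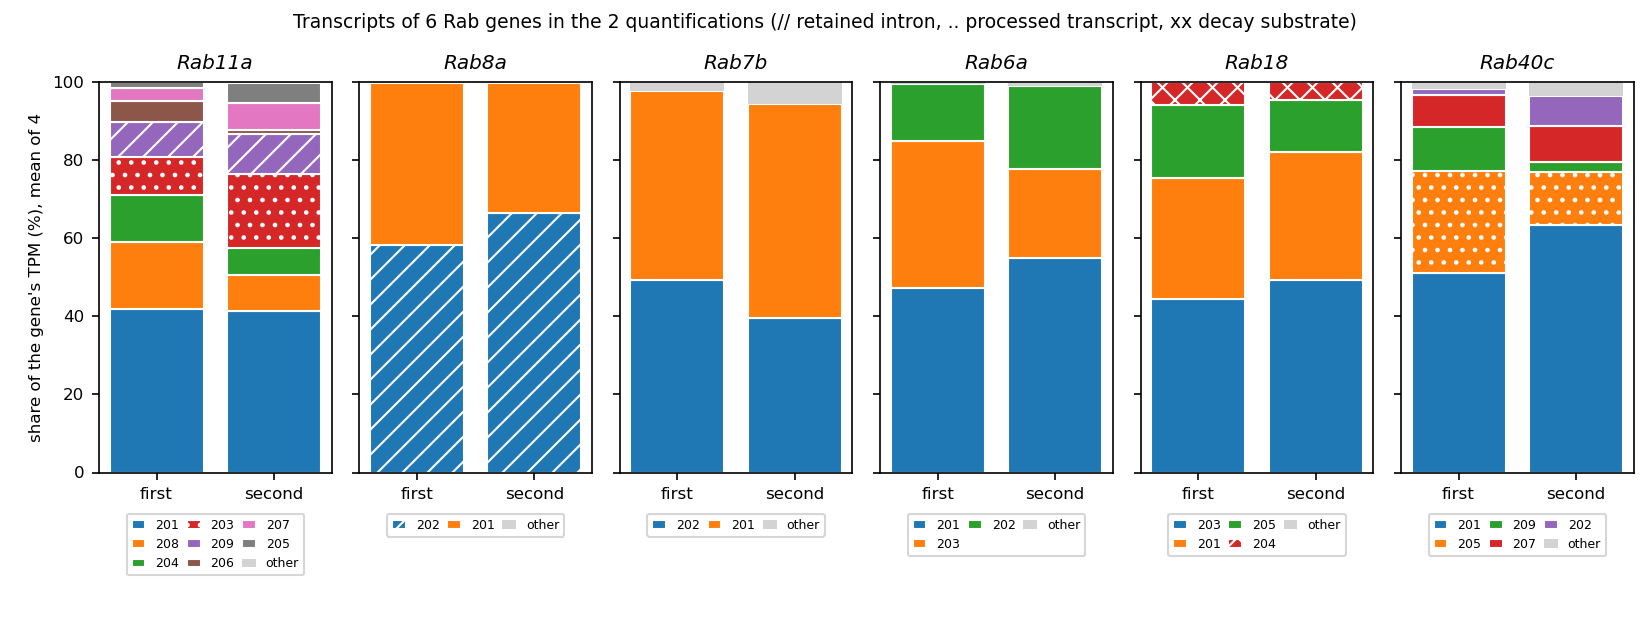
Mean share of the gene's TPM held by each transcript with at least 5% in either quantification, for the 6 Rab genes of at least 5 TPM led by a transcript with under 60%, with the first quantification as the left bar and the second as the right. The hatched retained-intron transcript leads Rab8a in both, at 58.3% and 66.3%, and the leader of Rab7b changes.

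Promoter sequence was described by its CpG content. RefSeq (GRCm38.p6) promoters, from 250 bases before to 50 after the start nearest to the transcript used, were found for 48 members. The dinucleotide CG occurred a median of 24.5 times in 34 promoters of members above 1 TPM and 10 times in 11 of members below it or with too few reads. In 3 promoters of members with neither call the median was 20. Among the 11, the start was 11220 bases from that of the transcript used for Rab3b and 695 for Rab3c, so these may be other promoters. Over all 32851 promoters in the table the median was 7, and 26.5% held at least 20, as did 20 of the 34 and 2 of the 11. This is a description of sequence and was not tested.

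Of 224 distinct regulators and effectors measured, 182 lay above 1 TPM, 17 below and 11 on neither side by limma with adjusted p, 14 had too few reads, and the median was 7.46 TPM. Those above were 86.7% of the 210 tested, beside 58.2% of all genes and 71.2% of protein-coding genes tested, and each list below can be read against these shares. Lipid attachment and extraction had 9 of 10 genes above 1 TPM. Gdi2, the general GDP dissociation inhibitor, had 179, 116, 152 and 172 TPM, at or above Rab7 in all 4 libraries, with Rabac1 at 23.7 ± 2.33.

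Of 54 genes in the list of GEFs, which counts subunits of complexes such as TRAPP, 48 lay above 1 TPM, with a median of 9.66 TPM. The list also holds Rab3gap1 and Rab3gap2, which are named as GAPs. Rab3il1, a GEF of Rab8 and Rab3A, led at 38.8 ± 7.26 TPM, then Dennd1a, which activates Rab35, at 34.8 ± 10.6 and the TRAPP subunit Trappc6b at 28.9 ± 4.47. The 4 below 1 TPM were Dennd2c at 0.263, Dennd5b at 0.0675, Rin1 at 0.0575 and Dennd3 at 0.0125 TPM. Of 40 GAPs, 38 were tested and 30 lay above 1 TPM, or 78.9%, with a median of 4.28 TPM over the 40. Tbc1d13, a GAP of Rab35, stood out at 73.8 ± 17.8 TPM over Tbc1d20 at 21.3 ± 3.59 and Tbc1d10b at 20.96 ± 4.59. Tbc1d16 at 0.713, Sgsm2 at 0.365, Tbc1d30 at 0.0625 and Tbc1d10c at 0.0525 TPM were below.

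For effectors, the counts are given by compartment. All 27 late endosome and lysosome effectors lay above 1 TPM, with a median of 12.9 TPM, led by the retromer subunits Vps26a at 52.3 ± 9.19 and Vps29 at 46.3 ± 6.01 and by Rilpl2 at 46.7 ± 12.2. Early endosome effectors had 19 of 20 above, led by Becn1 at 36.4 ± 7.97, Ankfy1 at 31.3 ± 5.64 and Gga1 at 24.9 ± 4.63, with Hook1 below at 0.085 TPM. Recycling and exocyst effectors had 22 of 28 above, or 84.6% of the 26 tested. They were led by Ehd4 at 114 ± 22.9, Myo5a at 83.5 ± 16.2 and Ehd1 at 76.1 ± 26.3, with Ehbp1 at 0.615, Rab11fip4 at 0.0975 and Ehd3 at 0.075 TPM below. Golgi and endoplasmic reticulum effectors had 22 of 25 above, led by Mia3 at 31.3 ± 5.97, Gorasp2 at 20.4 ± 2.92 and Uso1 at 15.5 ± 2.26, with Kif20a at 0.31 and Bicd1 at 0.035 TPM below.

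Secretory granule effectors were low, as were the Rab genes of that group. Of 15 effectors, 1 lay above 1 TPM, namely Unc13d, a priming factor of lytic granules, at 11.3 ± 2.36 TPM, and 10 had too few reads to test. Rims3 at 1.36 ± 0.691 TPM passed neither test. Sytl3 at 0.135, Unc13b at 0.11 and Mlph, which links Rab27a to myosin, at 0.0275 TPM lay below. Among kinases and a phosphatase that act on Rab proteins, 5 of 6 lay above 1 TPM, with Vps35, a retromer subunit counted here for its tie to LRRK2, at 44.2 ± 6.51, Tbk1 at 26.6 ± 5.76 and the phosphatase Ppm1h at 22.2 ± 3.75 TPM.

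**Figure D5:**
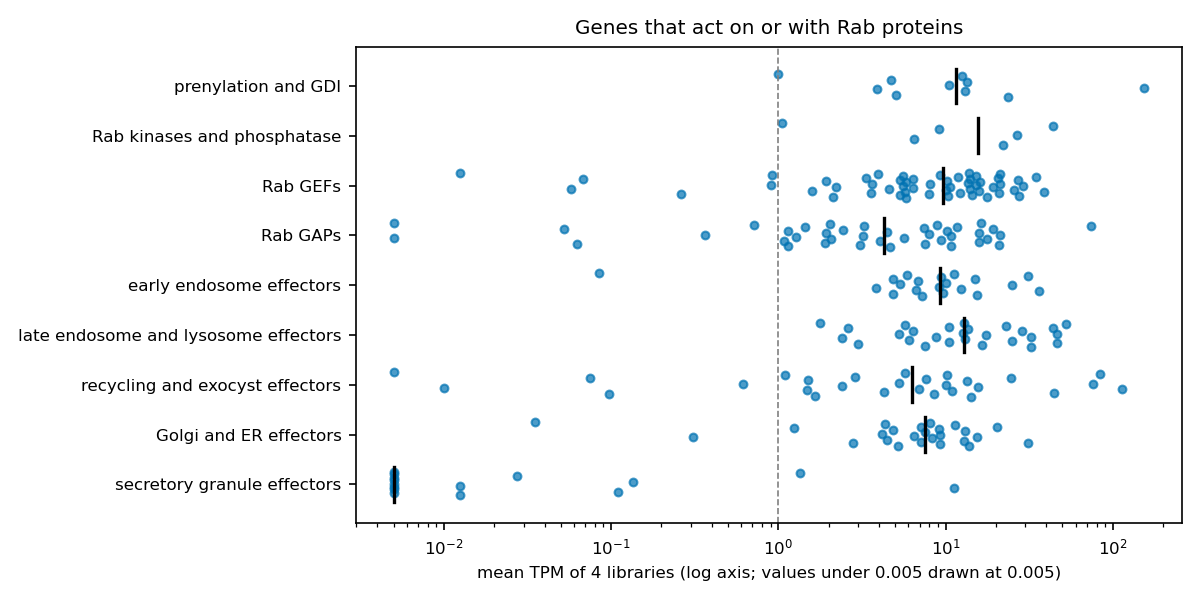
Mean TPM over 4 libraries (log axis) of each measured gene in 9 lists of genes that act on or with Rab proteins (points), with the list median (black bars) and 1 TPM (dashed); values under 0.005 are drawn at 0.005, and a gene in 2 lists is drawn in both. The late endosome and lysosome list lies wholly to the right of 1 TPM, and most of the secretory granule list to the left.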

How the data were processed

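Cytosolic RNA of 4 macrophage libraries was sequenced. Per the file headers, the authors deposited gene and transcript tables with expected counts, TPM and posterior means, and a second transcript table with estimated counts and TPM. Per the labels and the deposited notes, the build was mm10 with GENCODE annotation M21. Aligner and quantification tools: not given in the sources used here. All 55536 annotated genes were used. The 26248 numbered rows and 96 ERCC rows were left out.

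Members and lists were chosen with earlier results of these data known. Of 276 list symbols, 2 were not matched. Named are all members, with values by library for the 15 highest, those with neither call, the 5 of at least 1 TPM with the largest relative SD and those with split transcripts, and the 3 highest genes of each list. Some items that this rule selects are left out of the text.

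Levels were tested with limma 3.58.1 on log2(TPM + 0.1) against 1 TPM, one-sided in each direction, for genes with summed counts of at least 10, with Benjamini-Hochberg adjusted p below 0.05. Quantifications were compared with limma treat (log2 difference of 1). Spread came from edgeR 4.0.16 (TMM) on expected counts rounded to whole numbers, with DESeq2 1.42.0 as an alternative. Coding sequences are those of the longest complete protein-coding transcript with at least 10% of the gene's TPM, aligned in Biopython 1.88. In a simulation of the level tests on 16262 genes, 50 genes were set to each of 0.25, 0.5, 2 and 4 TPM. Of these, 100%, 98%, 92% and 100% were called on the correct side. The simulation used a fixed spread without a shift shared by a library. It set no genes to 1 TPM, so false calls at that level were not assessed. R 4.3.3 and Python 3.11.15 were used. Alternatives were other pseudocounts, filters, scalings, the second quantification and each library left out.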

Additional observations from a re-analysis of the deposited data

Results flagged for a closer look

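Of 76 values examined, 5 had 1 library far from the other 3, with a gap beyond Dixon's 95% critical value for 4 samples, and chance alone does this for about 1 in 20 values. Rab12 had 27.7 TPM in replicate 4 and 18.2 to 19.3 in the rest. Rab29 had 13.9 TPM in replicate 4 and 9.82 to 10.1 in the rest. Rab22a had 15.1 TPM in replicate 4 (15.05 in the table) and 7.74 to 8.65 in the rest. Rescaled to protein-coding genes, Rab12 had 75.7 TPM in replicate 4 beside 60.9, 71.9 and 61.7 in replicates 1 to 3, Rab22a had 41.1 TPM in replicate 4 and 27.3, 30.6 and 28.0 in replicates 1 to 3, while Rab29 had 38.0 beside 31.7, 38.8 and 33.6. The share of Rab11a-201 was 49.3% in replicate 4 and 38.5% to 40.4% in the rest, and that of Rab40c-201 was 23.6% in replicate 1 and 57.0% to 63.1% in the rest.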

How the results depend on the processing

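The count of members above 1 TPM stayed between 32 of 54 tested and 43 of 54 over all settings tried, beside 37 of 51. These ends were the second quantification as deposited and rescaled, where 7324 and 11309 of all 21508 genes lay above. The count below 1 TPM was 10 of 51 tested. With no filter on low values it was 18 of 59, beside 44918 of all 55536 genes. With summed counts of at least 40 it was 5 of 46, beside 2800 of 13287 genes. After rescaling to protein-coding genes it was 6 of 51. In the second quantification as deposited it was 19 of 54, beside 12231 of 21508 genes. With 1 library left out it was 8 to 10. Rescaling raises the median log2 level of all genes by 1.67 and changes their calls from 9457 above and 5712 below to 11024 and 3453. It turned Rab38 (1.80 TPM), Rab39 (2.95), Rab42 (1.25) and Rab4a (2.49) to the upper side of 1 TPM, as did the rescaled second quantification (1.72, 2.83, 1.65 and 2.52). In the second quantification as deposited, Rab23 (0.480), Rab27a (0.425), Rab34 (0.535) and Rab3a (0.517) turned to the lower side. On the log scale Rab23 turned without replicate 3 (0.95) and replicate 4 (1.07), with means of 0.95 to 1.3 over the 4 libraries left out in turn, and Rab39 without replicate 2 (1.02), with means of 0.793 to 1.02. The causes were not tested beyond the change of scale. The family's share was 0.520% of expected counts in place of 0.398% of TPM, and 0.390% to 0.404% with 1 library left out. All 15 paralog pairs kept their gene-level order under each alternative listed in the processing account. With only complete coding transcripts, an alternative chosen after seeing the data, 14 pairs kept 1 order in all libraries and the log2 ratio of Rab11a to Rab11b turned to -0.073. That alternative also counts shorter coding sequences that are annotated as complete. No member passed the test for a difference beyond 2-fold between quantifications (limma treat) under any alternative. This is no statement that the values were alike. As deposited, the median difference of all genes was -1.40 on the log2 scale, and Rab7 had 138 TPM in the first and 55.1 in the second. Median BCV was 10.5% by DESeq2, 18.1% in the second quantification and 13.0% to 16.2% with 1 library left out, near that of all genes each time. The same transcript led both quantifications in 36 to 38 of 39 members with 1 library left out, and in 39 of 39 by counts. No paired comparison of conditions was possible because there is 1 group. Quantifications and related genes were compared within each library.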
